A study of Rattus norvegicus with 49 samples.

Results

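The circadian clock genes were read here as 10 members of the molecular clock, Bmal1, Npas2, Clock, Cry1, Per1, Per2, Per3, Nr1d1, Dbp and Tef, in the livers of rats given furan, a contaminant of heated food that damages the liver. Their probes were those whose RefSeq accession maps to a member symbol. All 10 genes were found, with 17 probes of the 30367 on the array, which together carry 15154 named genes. Tests were run on probes bright enough to be read in liver, those that the scanner software marked above background on 4 or more arrays of any group, which left 13 of the 17 probes, from 9 of the 10 genes. Per1, a repressor of the loop, had 1 probe, which was well above background on 6 of 48 arrays, so its level had only a bound and no change is given for it.

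Male and female F344 rats, 7 to 8 weeks old at the start and otherwise untreated, received furan in corn oil by gavage on 5 days a week for 90 days. The doses were 2 mg/kg and, below it, 0.5, 0.12 and 0.03 mg/kg, and the controls at 0 mg/kg received the oil alone. Livers were collected 24 h after the last dose, and the time of day at which each animal was killed is not given in the sources used here. Each of the 10 groups held 5 rats with 1 array each, except that 4 male arrays were at hand at 0.03 mg/kg and 1 of these was left out, so that the group had 3. Whole liver was measured, so a value is a mean over all of its cells. RNA of each liver was compared on the array with a universal rat reference RNA pooled from mixed tissues, and every level below is a log2 ratio of liver over this reference, which gives the order of samples for 1 gene but no order of genes.

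In 48 of the 49 arrays, 37.9% to 71.1% of the liver spots were well above background, and in male 26 at 0.03 mg/kg, the array left out, 5.06% were. The arrays came from 8 slides. Slides 5 and 6 held 10 dosed arrays and 0 controls, with 37.9% to 46.0% of liver spots above background, and 8 of the 10 controls lay on slides 1 to 4. All 5 hepatocyte markers (Alb, Ttr, Apoa1, Tf, Serpina1) were well above background.

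The clock is a feedback loop that runs in nearly every cell. Bmal1 pairs with Clock or with its close relative Npas2 and switches on the Per and Cry genes, whose proteins enter the nucleus and block the pair, and also Nr1d1, which represses Bmal1 and Npas2. In rodent liver the Bmal1 side of the loop is known to peak around the end of the night and the start of the rest phase, while Nr1d1, Dbp, Tef and then the Per genes peak later in the rest phase and around dusk, and Cry1 follows the Per genes during the night. Dbp and Tef are transcription factors that carry the rhythm to output genes of metabolism.

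The loop acts through short DNA words: the E-box (CACGTG) bound by the Bmal1 pair, the D-box (TTATGTAA or TTACGTAA) bound by Dbp and Tef, and the RORE, with the core TAGGTCA, bound by Nr1d1. RefSeq promoters on GRCr8 were at hand for 9 of the 10 members, all but Cry1, in 11 entries. The 250 bases before the start are shown for 4 members, 3 with a called change and Bmal1, which every activating pair needs: Bmal1 (chr1:176766078-176766327, plus strand), Npas2 (chr9:48959315-48959564, plus strand), Per2 (chr9:99496994-99497243, minus strand) and Dbp (chr1:105312006-105312255, plus strand), each 5′ to 3′ on the strand of its gene, with matches to these words on either strand in capitals.
Bmal1: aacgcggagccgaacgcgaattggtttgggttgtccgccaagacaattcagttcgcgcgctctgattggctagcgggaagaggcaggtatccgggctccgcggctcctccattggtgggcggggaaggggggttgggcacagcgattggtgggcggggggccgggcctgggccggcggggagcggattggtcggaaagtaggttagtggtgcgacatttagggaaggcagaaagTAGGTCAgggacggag
Npas2: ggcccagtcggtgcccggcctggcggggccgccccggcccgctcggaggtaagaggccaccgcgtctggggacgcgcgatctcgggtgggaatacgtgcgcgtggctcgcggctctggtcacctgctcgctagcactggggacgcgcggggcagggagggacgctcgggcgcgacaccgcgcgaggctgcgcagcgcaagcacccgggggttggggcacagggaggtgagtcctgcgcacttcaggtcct
Per2: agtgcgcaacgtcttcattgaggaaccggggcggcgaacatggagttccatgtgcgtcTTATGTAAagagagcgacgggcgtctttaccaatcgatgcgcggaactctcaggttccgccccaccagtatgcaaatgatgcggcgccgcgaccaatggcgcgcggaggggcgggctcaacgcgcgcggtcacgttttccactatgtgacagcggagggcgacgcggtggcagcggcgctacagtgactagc
Dbp: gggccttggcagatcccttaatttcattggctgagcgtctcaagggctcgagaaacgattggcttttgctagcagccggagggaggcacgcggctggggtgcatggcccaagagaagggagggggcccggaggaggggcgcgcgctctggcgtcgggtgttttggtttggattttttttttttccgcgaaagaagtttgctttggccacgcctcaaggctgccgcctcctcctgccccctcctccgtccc
Bmal1 held the RORE core that begins 16 bases before its start, a word in 2.26% of all 33465 promoters. The D-box TTATGTAA of Per2 began 192 bases before its start, and 0.828% of all promoters held that word. The E-box, held by 5.59% of all promoters, was found in Tef at 198 bases and in the second entry of Nr1d1 at 191 bases before the start, and the D-box TTACGTAA, in 0.108% of all promoters, in no member. The windows of Npas2 and Dbp held none of these words, which says only that the letters are not in this window.

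The first question was which clock genes differed between livers of dosed rats and controls of the same sex. At 2 mg/kg the males showed the most: Dbp rose, Npas2, Cry1 and Per2 fell, and Bmal1 passed the test with a change under 1.5-fold. Females had no call among the clock genes at any dose. The estimates for Cry1 and Per2 were below 0 in all 8 comparisons of a dose with the controls of its sex. The comparisons within a sex share the same controls and are not independent. Both genes were called in the mean over all doses. Dbp and Npas2 were called against controls in males at 2 mg/kg and at no other dose.

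A probe was called when its Benjamini-Hochberg adjusted p over all tested probes was at most 0.05 and its change at least 1.5-fold in a limma fit with slide as a block. In males at 2 mg/kg, 4 of the 9 tested members were called, against 5.07% of all 17661 tested probes. In females at this dose 0 of 9 were called by limma, where 1.4% of all probes were, and 3 of 9 had an unadjusted p under 0.05, as did 24.0% of all probes. The median change over the 9 members was -0.23 in males and -0.08 in females, against -0.02 and 0.01 over all tested probes.

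**Figure D1:**
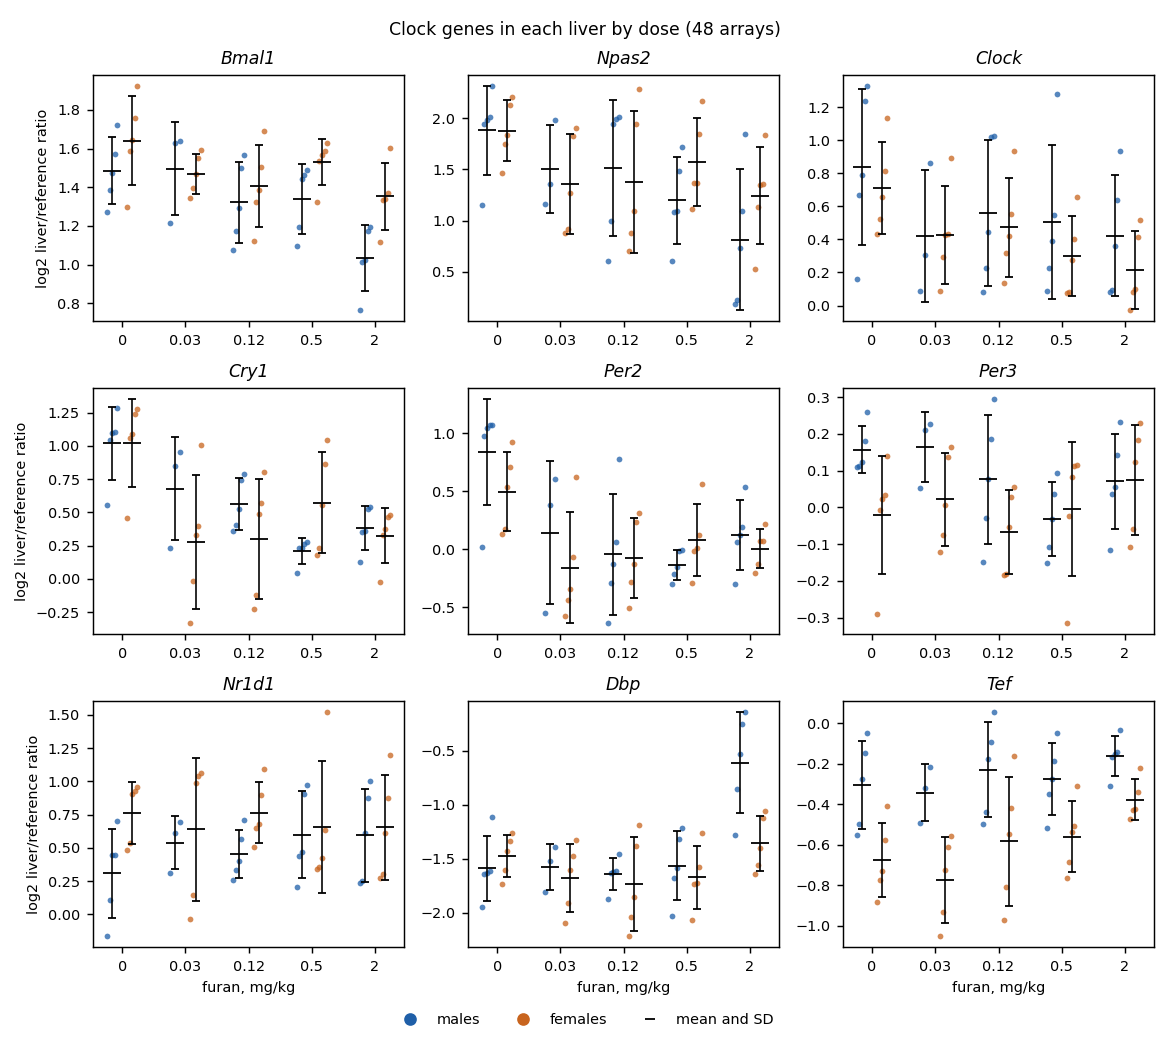
Log2 liver/reference ratio of the 9 tested clock genes (vertical axes, each with its own range) against furan dose in mg/kg, 1 point per liver, males in blue and females in orange, with the mean and SD of each group as black bars (n = 5, or 3 for males at 0.03 mg/kg). Dbp of males stands near -1.6 at 0 to 0.5 mg/kg and spreads from -1.28 to -0.14 at 2 mg/kg, while the means of Cry1 and Per2 in dosed groups lie below those of the controls of the same sex.

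Among the activators, Bmal1 is the partner that every activating pair needs. In male controls its log2 ratio was 1.27, 1.39, 1.47, 1.57 and 1.72, and at 2 mg/kg it was 0.77, 1.01, 1.02, 1.17 and 1.20. All 5 dosed males lay below all 5 controls, as did 1.6% of all probes. The difference was -0.38 ± 0.08 (SE, limma) or 1.30-fold, with an adjusted p of 0.0005, and was under the 1.5-fold limit. In females the groups overlapped, with 1.30 to 1.93 in controls and 1.12 to 1.60 at 2 mg/kg, and the difference was -0.16 ± 0.08 (adjusted p = 0.21). Below the top dose Bmal1 differed from controls by -0.14 to 0.02. A second, dimmer Bmal1 probe differed by -0.17 ± 0.11 in males at 2 mg/kg (adjusted p = 0.29).

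Npas2, which can stand in for Clock, was 1.15, 1.94, 1.99, 2.01 and 2.32 in male controls. In males at 2 mg/kg it was 0.19, 0.22, 0.73, 1.09 and 1.85, so that 4 of the 5 dosed livers lay below every control and male 86 lay among the controls. Of the 3 lowest, male 81 was on slide 5, male 87 on slide 8 and male 83 on slide 7, and the lowest control was the one on slide 8. The fall of 0.72 ± 0.14 in log2 ratio, 1.64-fold, was called (adjusted p = 0.0002). In females at 2 mg/kg the livers ranged from 0.53 to 1.84 against 1.47 to 2.21 in controls, with a difference of -0.08 ± 0.14 (adjusted p = 0.78). The second Npas2 probe, dimmer than the first, differed by -0.22 ± 0.11 in males at 2 mg/kg (adjusted p = 0.13), and with the mean over both probes the difference was -0.47 (adjusted p = 0.0001), under the 1.5-fold limit. In the deposited series table, fitted without slide, the difference was -0.94 with an adjusted p of 0.15.

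The level of Npas2 went with the slide. Its median was 1.94 on the 23 arrays of slides 1 to 4 and 1.09 on the 25 of slides 5 to 8. Clock, the other partner of Bmal1, showed the same order of slides with medians of 0.79 and 0.16, but its probe was not above background on 13 of the 25 arrays of slides 5 to 8 and was above it on all of slides 1 to 4, whereas the medians of the other 7 members differed between these slides by at most 0.15. Without slide in the fit, the mean change of Npas2 over all doses and both sexes was -0.56, against -0.19 ± 0.08 with slide (adjusted p = 0.19).

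Clock itself had no called change at any dose. Male controls ran from 0.16 to 1.33 and males at 2 mg/kg from 0.08 to 0.94, with a difference of -0.23 ± 0.14 (adjusted p = 0.23). In females the difference at 2 mg/kg was -0.21 ± 0.14 (adjusted p = 0.37).

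Cry1 is a strong repressor of the Bmal1 pair. Male controls were at 0.56, 1.05, 1.10, 1.10 and 1.29, males at 0.5 mg/kg at 0.04, 0.23, 0.23, 0.26 and 0.28, and males at 2 mg/kg at 0.13, 0.35, 0.36, 0.53 and 0.54. Every male at both doses lay below every control, as in 0.6% of all probes at 0.5 mg/kg and 1.6% at 2 mg/kg. The fall was 0.88 ± 0.20 at 0.5 mg/kg (1.84-fold, adjusted p = 0.030), where 2 of 9 members were called against 0.362% of all probes. The fall at 2 mg/kg was 0.63 ± 0.20 (1.55-fold, adjusted p = 0.016). That call was lost without male 5 of the controls (change of -0.56, adjusted p = 0.063) or without male 86 (-0.58, adjusted p = 0.040, under 1.5-fold).

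Female controls had Cry1 at 0.46, 1.06, 1.09, 1.24 and 1.28, of which female 4 stood apart. Females at 2 mg/kg were at -0.03, 0.33, 0.38, 0.46 and 0.48, so that 3 of 5 lay below every control. The difference was -0.61 ± 0.20 (1.52-fold) with an adjusted p of 0.065. Without female 4 it was -0.76 and was called (adjusted p = 0.026). At 0.03, 0.12 and 0.5 mg/kg the differences in females were -0.68, -0.77 and -0.43, each with an SE of 0.20, and adjusted p from 0.20 to 0.44.

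Per2, the other main repressor, was dim, with its probe well above background on 34 of 48 arrays, and the 14 others were all on slides 5 to 8. It was above background in 4 of 5 male controls, 3 of 5 males at 0.5 mg/kg and 4 of 5 at 2 mg/kg. Male controls were at 0.02, 0.97, 1.05, 1.07 and 1.07, where the low value is male 6, the control on slide 8. Males at 0.5 mg/kg were at -0.29, -0.21, -0.15, -0.011 and -0.002, all below every control, as in 0.6% of all probes. Males at 2 mg/kg were at -0.30, 0.07, 0.12, 0.19 and 0.54, of which 4 lay above the lowest control and below the others. Per2 fell by 1.09 ± 0.25 at 0.5 mg/kg (2.13-fold, adjusted p = 0.034). It fell by 0.76 ± 0.25 at 2 mg/kg (1.70-fold, adjusted p = 0.023). On slide 8, the male at 0.12 mg/kg had 0.77 and the control 0.02. The call at 2 mg/kg was lost when any of the male controls 2, 3, 4 or 5 or male 86 was left out, with changes of -0.62 to -0.72 and adjusted p of 0.051 to 0.079. It was also lost without slides 5 and 6 (-0.72, adjusted p = 0.065), as was the call at 0.5 mg/kg. In females the difference at 2 mg/kg was -0.52 ± 0.26 (adjusted p = 0.21) with controls at 0.14 to 0.92 and dosed livers at -0.20 to 0.22.

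Per3, a Per gene with a lesser part in the loop, had no called change. Males at 0.5 mg/kg, at -0.15 to 0.09, all lay below controls, at 0.11 to 0.26, as 0.6% of all probes did, and the difference was -0.17 ± 0.09 (adjusted p = 0.46). Nr1d1, the repressor of Bmal1, was not called either. It differed by 0.33 ± 0.17 in males at 2 mg/kg (adjusted p = 0.15) and by 0.14 ± 0.17 in females (adjusted p = 0.65). Its 8 dose differences, which share the controls of each sex, were all above 0, from 0.02 to 0.33.

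Dbp, the output factor that the Bmal1 pair drives, was at -1.94, -1.64, -1.64, -1.61 and -1.11 in male controls. At 2 mg/kg males were at -1.28, -0.86, -0.53, -0.25 and -0.14, so that 4 of 5 lay above every control and male 86 lay within them. Dbp rose by 0.93 ± 0.19 or 1.91-fold (adjusted p = 0.0004). The other Dbp probes rose too, by 0.73 ± 0.16 (adjusted p = 0.001) and 0.81 ± 0.18 (adjusted p = 0.0009). The Dbp rise remained called under all alternatives run, whereas in males at 2 mg/kg median centring lost Npas2 (-0.50, under 1.5-fold) and Cry1 (adjusted p = 0.13), and the scanner software's own ratio lost Cry1 (0.080) and Per2 (0.30). The rise remained called when any 1 of the 10 male arrays at 0 or 2 mg/kg was left out, with changes of 0.77 to 1.13.

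Below the top dose Dbp had no called difference, with male values of -0.13 at 0.03, -0.015 at 0.12 and -0.057 at 0.5 mg/kg, with SEs of 0.19 to 0.23. Females at 2 mg/kg, at -1.64, -1.56, -1.40, -1.13 and -1.06, overlapped their controls, at -1.73 to -1.27. The difference in females was 0.17 ± 0.20 (95% interval -0.23 to 0.57, adjusted p = 0.64). Tef, the close relative of Dbp, differed by 0.13 ± 0.12 in males (adjusted p = 0.48) and by 0.27 ± 0.13 in females (adjusted p = 0.19) at 2 mg/kg.

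**Figure D2:**
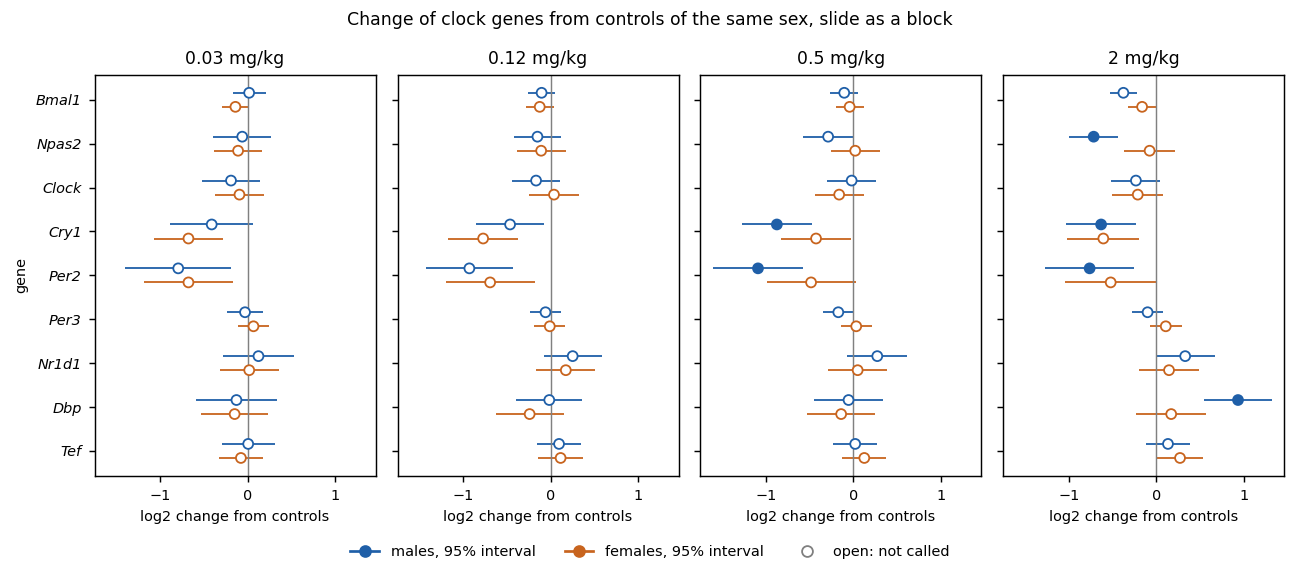
Log2 change (horizontal axes) of each tested clock gene (vertical axis) from the controls of its sex, with 1 panel per furan dose in mg/kg, from the limma fit with slide as a block. Points are estimates with 95% intervals, males in blue and females in orange, filled where called; 6 points are filled, all of males, for Cry1 and Per2 at 0.5 mg/kg and for Npas2, Cry1, Per2 and Dbp at 2 mg/kg.

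Over the 3 lower doses and both sexes, 2 of 54 tests of members were called, Cry1 and Per2 in males at 0.5 mg/kg, against 0.12% of all such tests, and 11 had an unadjusted p under 0.05, against 8.66%. Both calls were lost without any of male controls 2, 3, 4 or 5 or males 62, 63 or 70 at 0.5 mg/kg, and 1 of them without male 65 or 68. At 0.03 and 0.12 mg/kg limma called 0 members in either sex, where 0% and 0.3% of probes in males and 0.017% and 0.0113% in females were called. In females at 0.5 mg/kg 0 members were called, against 0.0283% of probes. Over all doses within a sex, limma's moderated F test called Npas2, Cry1, Per2 and Dbp in males (5.05% of probes were called) and no member in females (1.2%), where the adjusted p was lowest for Cry1, at 0.073.

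The second question was whether a gene followed the dose or set dosed animals apart from controls. In the mean of all dosed groups against the mean of both control groups, 2 of 9 members were called, against 0.306% of probes. Cry1 was lower by 0.61 ± 0.12 (1.52-fold, adjusted p = 0.002) and Per2 by 0.74 ± 0.15 (1.68-fold, adjusted p = 0.003). Bmal1 differed by -0.13 ± 0.05 (adjusted p = 0.10), Nr1d1 by 0.17 ± 0.10 (adjusted p = 0.33) and Dbp by 0.05 ± 0.11 (adjusted p = 0.84). The Cry1 call was close to the fold limit and was lost on that limit without any of male control 5, female control 2, female control 11, male 22 at 0.03 mg/kg or female 42 at 0.12 mg/kg, with changes of -0.55 to -0.58 and adjusted p of at most 0.0096.

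The slope over the 4 dosed groups compares dosed groups alone, but control arrays shared the fit and so entered its slide and spread estimates. It was called for 2 members in males, against 3.67% of probes, and for 0 in females by limma, against 2.29%, with 1 of 9 at an unadjusted p under 0.05, against 22.4%. Per 4-fold step of dose, the fitted slope in males was 0.31 ± 0.07 for Dbp (adjusted p = 0.002) and -0.21 ± 0.05 for Npas2 (adjusted p = 0.003). Dbp of males did not rise step by step. It differed from controls by -0.13, -0.015 and -0.057 at 0.03, 0.12 and 0.5 mg/kg and by 0.93 at 2 mg/kg, so its slope came from the top dose. Bmal1 of males had a slope of -0.12 ± 0.03 (adjusted p = 0.003), under the limit of 1.5-fold over the 3 steps. The slopes of Cry1 and Per2 were -0.11 ± 0.07 and -0.0074 ± 0.089 in males and 0.055 ± 0.061 and 0.067 ± 0.078 in females, with adjusted p of 0.32 to 0.97. Cry1 and Per2 were thus called against controls with no called slope, and Dbp and Npas2 had a called slope in males with no call in the mean over all doses.

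As all controls of 1 sex lay on 5 slides, each dosed array was also set against the control of its own sex on its own slide, which 21 dosed arrays had. Cry1 was below that control in 18 of the 21, with a median difference of -0.74, and Per2 in 18 of the 21, with a median of -0.66. Averaged over the dosed arrays of a slide and sex, Cry1 was lower in 9 of 9 such sets and Per2 in 8 of 9. Nr1d1 was below the control in 4 of 21, with a median difference of 0.16. Clock was below in 16 of 21, Bmal1 and Npas2 in 14, Per3 in 11, and Dbp and Tef in 10.

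The low Cry1 and Per2 of dosed livers was seen mainly on slides 1 to 4. There, Cry1 was below the control in 15 of 15 arrays (median difference of -0.76) and Per2 in 15 of 15 (median of -1.22). Dosed arrays of the same sex on a slide share 1 control, so such counts are not of independent pairs. On slides 7 and 8, each with 1 control, Cry1 was below in 3 of 6 (median of -0.14) and Per2 in 3 of 6 (median of -0.029). For Per2 these pairs are near the floor: male control 6 on slide 8 and females 24 and 62 on slide 7 were not above background. The controls themselves differed: Cry1 was at 1.05 to 1.29 in the 8 controls on slides 1 to 4 and at 0.46 and 0.56 in the 2 on slides 7 and 8, and Per2 was at 0.14 to 1.07 and at 0.02 and 0.18. With 1 control on each of slides 7 and 8, the slide and that animal cannot be told apart. On the same slides Dbp, Nr1d1 and Tef were above the control in 6 of 6 and Npas2 below it in 6 of 6, against 5, 11, 5 and 8 of 15 on slides 1 to 4.

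Only 3 males at 2 mg/kg had a control on their slide. Dbp was higher than the control in all 3, by 0.35, 1.47 and 1.69, where the smallest belongs to male 86. Npas2 was lower in all 3, by -0.09, -0.93 and -1.23, and again male 86 had the smallest. Bmal1 differed by -0.40 to -0.26 and Cry1 by -0.76 to -0.43, and Per2 was lower in 2 of 3.

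**Figure D3:**
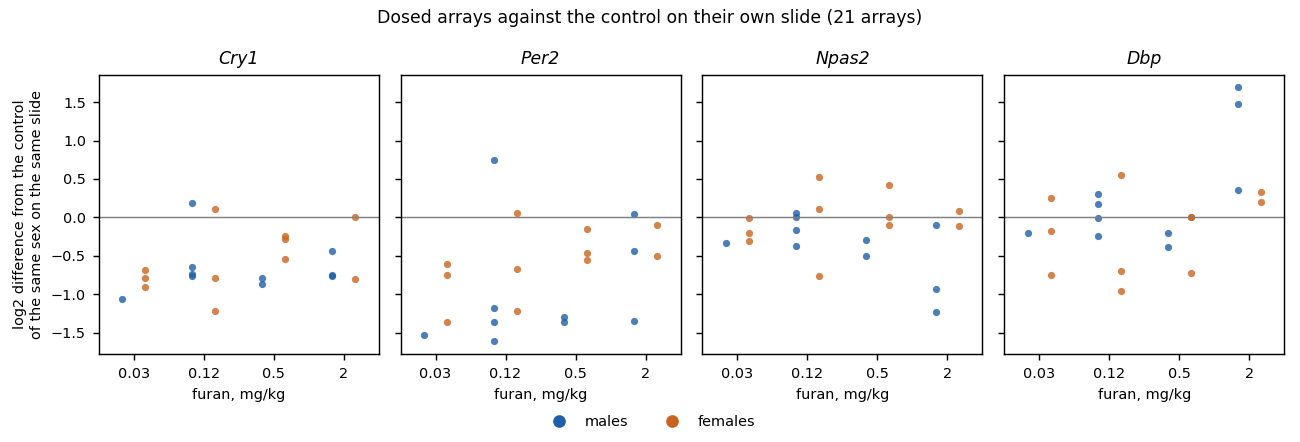
Log2 difference of each dosed array from the control of the same sex on the same slide (vertical axis) for Cry1, Per2, Npas2 and Dbp against furan dose in mg/kg (21 arrays, males in blue, females in orange, 0 marked by a line). Cry1 and Per2 lie below 0 in 18 of 21 arrays at doses from 0.03 mg/kg on, and Dbp lies above 0 in all 3 males at 2 mg/kg.

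The clock genes can be read as phase through the balance of the Bmal1 arm (the mean of Bmal1, Npas2, Clock and Cry1) and the Per arm (the mean of Per2, Per3, Nr1d1, Dbp and Tef, without Per1). The members were grouped with results of these data known, so the balance is given with no test. In male controls the Bmal1 arm exceeded the Per arm by 1.13, 1.32, 1.41, 1.54 and 1.72, and at 2 mg/kg by 0.35, 0.45, 0.57, 0.83 and 1.10. In females it exceeded it by 1.23 to 1.69 in controls and by 0.76 to 1.18 at 2 mg/kg. These values take no account of slide, with which the Npas2 and Clock levels in the Bmal1 arm went: 8 of 10 controls lay on slides 1 to 4, and 3 of 5 males and 4 of 5 females at 2 mg/kg on slides 5 to 8. The controls and the animals at 2 mg/kg did not overlap in either sex. Against the control of the same sex on the same slide, the balance differed by -0.44, -0.89 and -0.97 in the 3 males and by -0.25 and -0.31 in the 2 females at 2 mg/kg that had one.

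With slide in the fit the balance differed from controls by -0.60 in males and -0.30 in females at 2 mg/kg (-0.51 in females without slide), and by -0.12 to 0.003 at the lower doses. In males the Bmal1 arm changed by -0.49 and the Per arm by 0.11. Inside the Per arm the members went opposite ways, with Dbp at 0.93 and Per2 at -0.76. At the lower doses both arms were below controls in both sexes, the Bmal1 arm by -0.32 to -0.15 and the Per arm by -0.21 to -0.08. Cry1 is in the first arm and Per2 in the second, so a small balance there does not mean unchanged members. As the time of day of collection was not at hand, phase itself was not tested.

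**Figure D4:**
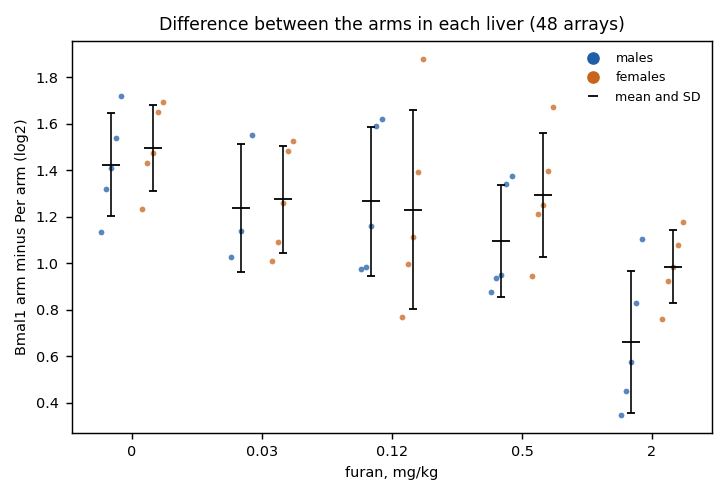
Mean log2 ratio of the Bmal1 arm (Bmal1, Npas2, Clock, Cry1) minus that of the Per arm (Per2, Per3, Nr1d1, Dbp, Tef) in each liver (vertical axis) against furan dose in mg/kg, males in blue and females in orange, with the mean and SD of each group. Males at 2 mg/kg run from 0.35 to 1.10 and male controls from 1.13 to 1.72.

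The sexes were then compared. In controls no member was called between males and females, against 6.42% of probes, and 2 of 9 had an unadjusted p under 0.05, against 34.4%. Tef was higher in male controls, at -0.55 to -0.05 against -0.89 to -0.41 in females, with overlap, by 0.39 ± 0.12 (adjusted p = 0.018), under 1.5-fold. The difference between the effects of 2 mg/kg in the sexes was called for 0 members by limma, against 1.08% of probes, and 2 of 9 had an unadjusted p under 0.05, against 18.9%. It was -0.64 ± 0.19 for Npas2 (adjusted p = 0.067) and 0.76 ± 0.26 for Dbp (adjusted p = 0.10), so the male response was not shown to differ from the female one, although 2 members were called when male 86 was left out. For Cry1 it was -0.03 ± 0.27, with a 95% interval of -0.58 to 0.53.

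How the members moved together within groups was described by the correlation of their log2 ratios over the 48 arrays after the means of group and slide were removed. These values share the array, the reference channel and the normalization. Cry1 and Per2 had the highest correlation of the 9 members, 0.72, and Per2 and Dbp followed with 0.63 and Dbp and Tef with 0.55. Npas2 and Dbp were opposed, at -0.60, and Npas2 went with Nr1d1 at 0.44. Bmal1 was correlated with Per2 at 0.44 and with Npas2 at 0.21.

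**Figure D5:**
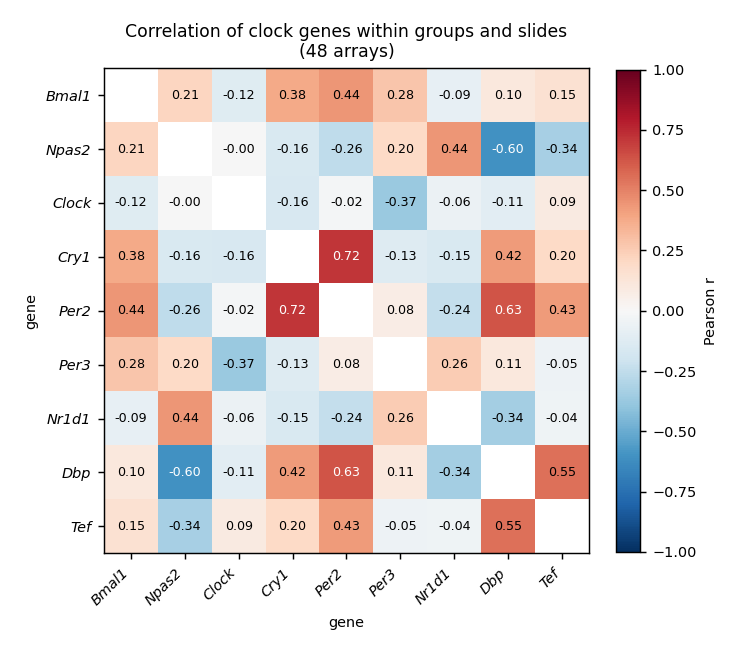
Pearson correlation between clock genes (both axes) over 48 arrays after removal of group and slide means, on a scale from -1 in blue to 1 in red. The most positive cell is Cry1 with Per2 at 0.72, and the most negative Npas2 with Dbp at -0.60.

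Among 9851 genes, the 5 most like Dbp were Pcna (r = 0.71), which clamps the DNA polymerase in replication, Wee1 (0.70), a kinase that holds back mitosis and a known clock target, KIAA0319l (0.70), Sirpa (0.68) and Nap1l1 (0.66). Per2 ranked at place 7 and Tef at place 48 of this order. The most opposed to Dbp were Otc (-0.73), an enzyme of the urea cycle, Dhtkd1 (-0.70), Cfhr4 (-0.69), Sez6 (-0.69) and Sult1b1 (-0.68), and Npas2 was at place 49 from this end. Most like Bmal1 were Spdya (0.71), Lrba (0.70), Snap29 (0.67), Igsf11 (0.64) and Usp47 (0.64), and most opposed were Atg101 (-0.70), Tmub1 (-0.70), Plek (-0.68), Jmjd6 (-0.64) and Itm2c (-0.64). The member nearest to Bmal1 was Per2, at place 249.

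Other genes of the loop were taken from a list of 14, of which 8 were tested. In males at 2 mg/kg 0 were called higher and 2 lower, and in females 0, where 5.07% and 1.4% of all probes were called, with list medians of -0.01 and 0.11. Bhlhe40, a repressor that competes for the E-box, fell by 0.89 ± 0.19 in males at 2 mg/kg (adjusted p = 0.0006) and had a called slope among dosed males of -0.26 per 4-fold step (adjusted p = 0.007). Nfil3, the factor that binds the D-box against Dbp, fell by 0.59 ± 0.09 at 0.5 mg/kg (adjusted p = 0.0008) and by 0.62 ± 0.09 at 2 mg/kg (adjusted p = 5.2e-06) in males. In females at 2 mg/kg Nfil3 differed by -0.30 ± 0.09 (adjusted p = 0.044) and Csnk1d, a kinase of the Per proteins, by 0.39 ± 0.12 (adjusted p = 0.045), both under 1.5-fold. Nr1d2, Ciart, Bhlhe41 and Hlf were among those with no tested probe.

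Of 12 clock output genes, all tested, 2 were called higher and 0 lower at 2 mg/kg in each sex, where 5.07% of all probes were called in males and 1.4% in females. Upp2, a uridine phosphorylase, rose by 1.18 ± 0.29 in males (adjusted p = 0.003) and by 0.97 ± 0.31 in females (adjusted p = 0.0497). Por, the reductase that feeds the P450 enzymes, rose in males by 0.61 at 0.12, 0.59 at 0.5 and 0.70 at 2 mg/kg, with adjusted p of 0.025, 0.038 and 0.0002. Lpin1, a phosphatase of lipid synthesis, was higher over all doses by 1.15 ± 0.22 (adjusted p = 0.002). The other 9 of this list, Wee1 and Usp2 among them, were called in no comparison of doses, with Wee1 at 0.11 ± 0.15 in males at 2 mg/kg.

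Genes that respond to glucocorticoids, a hormone signal known to set the phase of the liver clock, were taken as 8 genes, all tested. In males at 2 mg/kg, where 5.07% of all probes were called, 2 were called higher, Fkbp5 by 1.28 ± 0.28 and Zbtb16 by 1.84 ± 0.34. Another 4 were called lower, Sgk1, Dusp1, Tat and Gadd45g, by 1.04 to 1.65 with adjusted p of at most 0.00165. In females at this dose Zbtb16 alone was called, at 1.66 ± 0.35 (adjusted p = 0.005), where 1.4% of all probes were called. Over all doses and both sexes Zbtb16 was higher by 1.55 ± 0.20 (adjusted p = 2.3e-05) and Fkbp5 by 0.92 ± 0.17 (adjusted p = 0.001). Sgk1, Dusp1 and Gadd45g were lower by 0.65 to 0.86, and 0.306% of all probes were called in this comparison. The part of this signal in the clock genes was not tested.

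Markers of other liver cells moved at 2 mg/kg too, and in whole liver fewer cells of a type and less RNA per cell cannot be told apart. Of 4 bile duct markers 3 were tested, and the mean log2 ratio over these ran from -1.79 to -0.97 in male controls and from -1.31 to -0.02 in males at 2 mg/kg, where Epcam and Krt19 were called higher, by 0.92 ± 0.16 and 0.76 ± 0.23. In females Epcam alone was called, at 0.60 ± 0.16, with the mean level at -1.73 to -1.15 in controls and -1.21 to -0.51 at 2 mg/kg. Of 4 stellate cell markers 1 was called higher in males. Among the 5 hepatocyte, 4 macrophage, 2 endothelial and 1 leukocyte markers tested 0 were called by limma in either sex at 2 mg/kg. At this dose 5.07% of all probes were called in males and 1.4% in females, so 0 among so few markers is near that share. In males Alb differed by -0.51 ± 0.10, Ttr by -0.50 ± 0.11 and Serpina1 by -0.41 ± 0.12, and the Kupffer cell marker Clec4f by -0.49 ± 0.10, with adjusted p of 0.0004 to 0.010 and under 1.5-fold. The mean hepatocyte level ran from 6.08 to 8.36 in male controls and from 5.98 to 7.76 in males at 2 mg/kg. The part of these cells in the clock results was not tested.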

How the data were processed

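RNA of 49 rat livers (RNA integrity number of at least 8) was hybridized by the authors in Cy5 against universal rat reference RNA in Cy3 on Agilent 2-color arrays of 8 slides, with no dye swap, and read with Agilent Feature Extraction 10.7.3.1 per the labels. The deposited scanner files hold spot intensity per channel on a linear scale and a log10 ratio, with scores of 0 or 1 that the software gave each spot for being above background or an outlier before the files were deposited, and the deposited series table holds log2 ratios normalized by the authors. The arrays' number, 3 to 5 a group, limits the precision.

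From the median and background intensity, normexp with an offset of 50 and loess within arrays gave log2 ratios, control spots and outlier spots left out, and spots of a probe averaged. A probe needed 4 arrays of a group above background, which 17661 of 30367 probes had. An array with under 10% of liver spots above background was left out. limma 3.58.1 in R 4.3.3 fitted all 10 groups with slide as a block (31 residual degrees of freedom), with Benjamini-Hochberg adjustment over all tested probes and a 1.5-fold minimum (for a slope, over its 3 steps). SE and intervals of 95% come from this fit. Where a gene had several probes, the brightest was shown. In simulated data with independent normal noise, 97.5% of 200 probes changed by log2 1 in males at 2 mg/kg were called among 17661. Smaller changes, such as those of Cry1, Npas2 and Per2, were not simulated. The members and lists were chosen with earlier results of these data known. All members were named by role, and the 5 genes most and least like Dbp and Bmal1 by correlation. The labels name single rats, so the spread is between animals. Alternatives were no slide block, a random block, median centring, the software's ratio, the series table, the liver channel alone, other filters and probe rules, array weights and arrays left out. Single arrays were left out only from the groups that a result compares.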

Additional observations from a re-analysis of the deposited data

Results flagged for a closer look

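In 81 groups of 5 arrays, 9 genes by 9 groups, 4 arrays stood far from the rest of their group by Dixon's test, where chance gives about 1 in 20 groups, or 4.05. Cry1 of female 4 at 0 mg/kg was 0.459 against 1.06 to 1.28 in the other controls. Per2 of male 6 at 0 mg/kg was 0.022 against 0.97 to 1.07 in the other controls. These are the controls on slides 7 and 8. Cry1 of male 62 at 0.5 mg/kg was 0.042 against 0.231 to 0.276. Nr1d1 of female 62 at 0.5 mg/kg was 1.52 against 0.342 to 0.636, and this array had no closely matching column in the series table, where the highest correlation was 0.986. Male 83 at 2 mg/kg had none either (0.977), nor had the array left out (0.648). A fit without female 62 and male 83, chosen after seeing the data, called the same 4 members in males at 2 mg/kg.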

How the results depend on the processing

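Of the single gene results, 189 alternatives gave the same direction and side of the threshold, 4 gained a call, 13 lost one and 4 turned the sign. These results are of Bmal1, Npas2, Cry1, Per2 and Dbp at 2 mg/kg in each sex and in the mean of all doses. Most were not called in the main fit and so had no call to lose. All lost calls were of Npas2, Cry1 or Per2. The Dbp rise in males at 2 mg/kg was called in all of its alternatives.

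At 2 mg/kg in males, 4 clock genes were called, and 2 under median centring, the scanner software's log ratio, the series table and the liver channel alone, 3 with the mean over probes, where Npas2 was lost, and 3 without slides 5 and 6, where Per2 was lost; leaving out 1 array gave 2 to 4, with 2 without male 86 or male control 5. In females the count of 0 became 1 without the slide block, with slide as a random block and with array weights, and was 0 to 1 with 1 array left out, with 1 without female control 4. At the 3 lower doses the count of 2 became 0 without the slide block, under median centring, the software's ratio, the series table, the liver channel alone and without slides 5 and 6, 1 with the dim array kept or no filter on dim probes, and 3 with a random block or array weights. It was 0 to 3 with 1 array left out, and 0 without male controls 2, 3, 4 or 5 or males 62, 63 or 70 at 0.5 mg/kg. The slopes called, 2, were 1 without the slide block, under median centring, the series table, array weights and the mean over probes, 0 with the dim array kept, and 1 to 2 with 1 array left out, with 1 without male 84 or 87. In the mean of all doses the 2 calls became 1 under the software's ratio and 0 with the liver channel alone, where Cry1 was -0.53 and Per2 -0.51, and were 1 to 2 with 1 array left out. The F test called 4 in males, and 2 without the slide block, under median centring, the software's ratio and the series table, with 3 to 4 when 1 array was left out. In females it called 0, and 1 with a random block or array weights, with 0 to 1 when 1 array was left out. The interaction had 0 calls, 1 with array weights, and 0 to 2 with 1 array left out, with 2 without male 86. Between control sexes 0 were called, 1 on the adjusted p alone, and 0 with any 1 control array left out. The difference of the arms in females, -0.30, was -0.51 without the slide block and -0.52 in the series table, and -0.36 to -0.26 with 1 array left out; in males it was -0.66 to -0.53.

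Signs turned for Dbp in the mean of all doses (0.05), at -0.0015 under median centring and -0.044 with array weights, with -0.028 to 0.11 when 1 array was left out and values below 0 without female control 4 or male control 6 (-0.0026), and for Npas2 in females at 2 mg/kg (-0.08), at 0.020 under the software's ratio and 0.00053 without slides 5 and 6. The causes were not tested. Median centring put the median of all probes at 0.08 in males at 2 mg/kg, where loess had -0.02, at -0.12 in females at 0.5 mg/kg, at -0.15 between control sexes and at 0.15 for the interaction.

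No paired analysis was possible because the numbers name individual animals and the groups compared within a sex share fewer than 2 numbers. Of the series table's columns 7 matched the array of their own number, so slide could not be taken from a column's label and the table was used by labeled group without slide; a fit with slides assigned by matching values was not run. That choice, leaving out slides 5 and 6, and the split of slides 1 to 4 from 7 and 8 were made after seeing the data. Of the 17 member probes 4 were too dim to test, the only Per1 probe among them.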
